A study of Mus musculus with 2 samples.

Results

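The clustered histone genes encode the linker histone H1 and the core histones H2A, H2B, H3 and H4 in repeated copies. They were taken as all protein-coding genes of the GENCODE M21 annotation (mouse assembly mm10) whose symbol starts with Hist1h, Hist2h, Hist3h or Hist4. This gave 67 of 21938 protein-coding genes: 6 H1, 18 H2A, 18 H2B, 12 H3 and 13 H4 genes. The Hist1 cluster on chromosome 13 held 54 of them, Hist2 on chromosome 3 held 10, Hist3 on chromosome 11 held 2, and Hist4 on chromosome 6 held 1.

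Chromatin accessibility was mapped by DNase-seq, in which DNase I cuts DNA that is open in the nucleus, in whole lung of newborn mice (postnatal day 0) of strain B6NCrl. There was 1 group of 2 biological replicates and no second condition, genotype or treatment. Both replicates carry the same donor entry and separate biosample entries, sex was not collected, and whether they came from different animals or from pools was not stated. The extraction protocol was the same for both. For replicate 1 the labels list more than 1 model of Illumina instrument, and for replicate 2 none. With 2 libraries of 1 group there is no contrast between conditions and no test over samples. Each value is given for replicate 1 and then for replicate 2, and the gap between them is the only measure of error. As a check of the tissue, 6 of 6 lung epithelium markers and 6 of 6 mesenchyme and vessel markers had a promoter peak in both replicates, against 1 of 6 markers of other tissues (Alb, at scores of 36 and 40).

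Peaks were 150 bp wide in the authors' lists. Each carried the authors' own score, a whole number up to 150. The sources used here state neither what the score measures nor the sequencing depth. Replicate 1 listed 276892 peaks with a median score of 50, and replicate 2 listed 188726 with a median of 43. A gene had a shared promoter peak if peaks of both replicates lay within 500 bp of one of its transcription start sites (TSSs) and overlapped each other by at least 1 bp. In bulk tissue, a site open in more cells and a site more open in each cell cannot be told apart.

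Most of these genes are transcribed in S phase, when newly copied DNA has to be packed into nucleosomes, and are called replication-dependent. Their transcripts lack introns and end in a stem-loop rather than a poly(A) tail. Transcription depends on NPAT, a coactivator that gathers at the clusters in the histone locus body, with partners that differ between types: HINFP acts on H4 genes and OCT1 with its coactivator complex on H2B genes. Short sequences known from these promoters are the TATA and CCAAT boxes in general, the octamer of H2B genes, the H1 box of H1 genes and the HINFP element of H4 genes.

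The promoters of 6 members show the arrangements that the results turn on. They are the strongest site among the members (Hist1h2bg), a member known from testis without a peak (Hist1h2ba), the strongest and a peak-less H4 gene (Hist1h4c, Hist1h4m), the strongest H1 gene (Hist1h1e), and the H1 gene whose start differs between annotations (Hist1h1d). Each line gives the 200 bases before the 5′ end in GRCm38, the assembly that mm10 denotes, read 5′ to 3′ towards the gene. Capitals mark the letters of the TATA box (TATAAA), the CCAAT box, the octamer (ATTTGCAT), the H1 box (AAACACA) and the core of the HINFP element (GGTCCG), on either strand.
Hist1h2bg, chr13:23571196-23571395, plus strand: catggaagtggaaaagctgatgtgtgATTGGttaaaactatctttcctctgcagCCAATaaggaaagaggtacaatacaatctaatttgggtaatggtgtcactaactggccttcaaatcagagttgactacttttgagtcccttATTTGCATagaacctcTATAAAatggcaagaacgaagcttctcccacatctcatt
Hist1h2ba, chr13:23934157-23934356, minus strand: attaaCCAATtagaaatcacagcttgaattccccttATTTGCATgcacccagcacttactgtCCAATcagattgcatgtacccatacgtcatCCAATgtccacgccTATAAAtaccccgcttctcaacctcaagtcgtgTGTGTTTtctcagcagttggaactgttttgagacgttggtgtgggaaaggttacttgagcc
Hist1h4c, chr13:23698455-23698654, minus strand: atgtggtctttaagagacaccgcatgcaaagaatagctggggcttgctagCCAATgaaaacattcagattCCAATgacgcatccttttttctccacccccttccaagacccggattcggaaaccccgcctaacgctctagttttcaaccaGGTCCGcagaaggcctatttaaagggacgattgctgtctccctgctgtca
Hist1h4m, chr13:21811546-21811745, plus strand: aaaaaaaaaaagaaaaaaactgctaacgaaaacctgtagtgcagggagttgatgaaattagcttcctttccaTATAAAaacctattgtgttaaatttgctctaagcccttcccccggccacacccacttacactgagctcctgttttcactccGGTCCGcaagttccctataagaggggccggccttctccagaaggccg
Hist1h1e, chr13:23622559-23622758, minus strand: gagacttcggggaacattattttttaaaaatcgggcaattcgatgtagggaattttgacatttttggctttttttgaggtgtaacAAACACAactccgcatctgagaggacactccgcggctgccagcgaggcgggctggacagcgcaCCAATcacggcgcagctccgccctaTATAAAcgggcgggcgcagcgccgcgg
Hist1h1d before the GENCODE 5′ end, chr13:23553062-23553261, plus strand: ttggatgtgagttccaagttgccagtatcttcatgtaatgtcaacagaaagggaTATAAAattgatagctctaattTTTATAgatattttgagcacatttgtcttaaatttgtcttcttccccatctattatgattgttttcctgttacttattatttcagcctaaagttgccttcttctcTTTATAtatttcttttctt
Hist1h1d before the RefSeq start, chr13:23554832-23555031, plus strand: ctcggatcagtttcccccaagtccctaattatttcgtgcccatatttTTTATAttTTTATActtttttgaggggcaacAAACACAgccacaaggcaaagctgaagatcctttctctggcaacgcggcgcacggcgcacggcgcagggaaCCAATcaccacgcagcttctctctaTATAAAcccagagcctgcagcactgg

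In Hist1h2bg the octamer began 55 bases and the TATA box 39 bases before the 5′ end, with CCAAT boxes at 174 and 146 bases. In Hist1h4c the HINFP core began 50 bases before the 5′ end and the CCAAT boxes 150 and 130 bases before it, and in the peak-less Hist1h4m the HINFP core began 47 bases before it. In Hist1h1e the H1 box, the CCAAT box and the TATA box began 115, 52 and 27 bases before the 5′ end. The stretch before the RefSeq start of Hist1h1d had the same 3 motifs in that order, at 122, 51 and 26 bases.

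A shared promoter peak was found for 56 of the 67 histone genes (83.6%), against 68.4% of all protein-coding genes under the same rule. The other 11 had no peak and no hotspot within 500 bp of a TSS in either replicate, so the replicates made the same call for all 67 genes. The share of all protein-coding genes with the same call in both replicates is not given here. Depth was not given, so a missing peak says that none was listed, not that the promoter was closed. Hotspots, the broader open regions that the authors called with a −log10 q-value capped at 100, lay at 56 of 67 members in both replicates, against 69.1% of all protein-coding genes. At 55 of these members the hotspot was at the cap in each replicate, and the exception was Hist1h1t. Of all hotspots in the genome, 39.47% and 36.21% were at the cap. The share for promoter hotspots of all genes is not given here.

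The promoters of most members were rich in CpG dinucleotides. With all protein-coding genes sorted into 10 groups by the number of CpG within 500 bp of the 5′ end, 63 of 67 members fell in groups 6 to 10. There 53 of the 63 members had a shared peak (84.1%), against 95.2% of all 11040 genes of those groups. The share of members was thus above that of all genes and below that of genes with as many CpG. Members have few annotated TSSs, 1 for 63 of the 67, which leaves less sequence to search. Of other genes with 1 TSS in CpG groups 6 to 10, 83.5% of 1360 had a shared peak, close to the members' share.

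Where a site was present, 41 of 56 members scored above the median of all genes with a site in both replicates. The share of all genes, or of genes with as many CpG, that did so is not given here. Paired members also count the same site for both genes. The median score over the 56 members, taking for each gene its highest-ranking shared site, was 132 and 116, against 121 and 101 over all 15000 genes with a shared site. For all genes with a shared site in CpG groups 6 to 10 the medians were 126 and 108. For other genes with 1 TSS in those groups they were 119 and 100. The 56 members used 46 distinct sites. Over these 46 sites the scores of the replicates had Spearman's rho 0.84 and Pearson's r 0.948, as a description across sites of the same 2 libraries. Replicate 1 had the higher score at 45 of 46 sites, by a median of 0.19 on the log2 scale (0.24 over all genes).

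**Figure D1:**
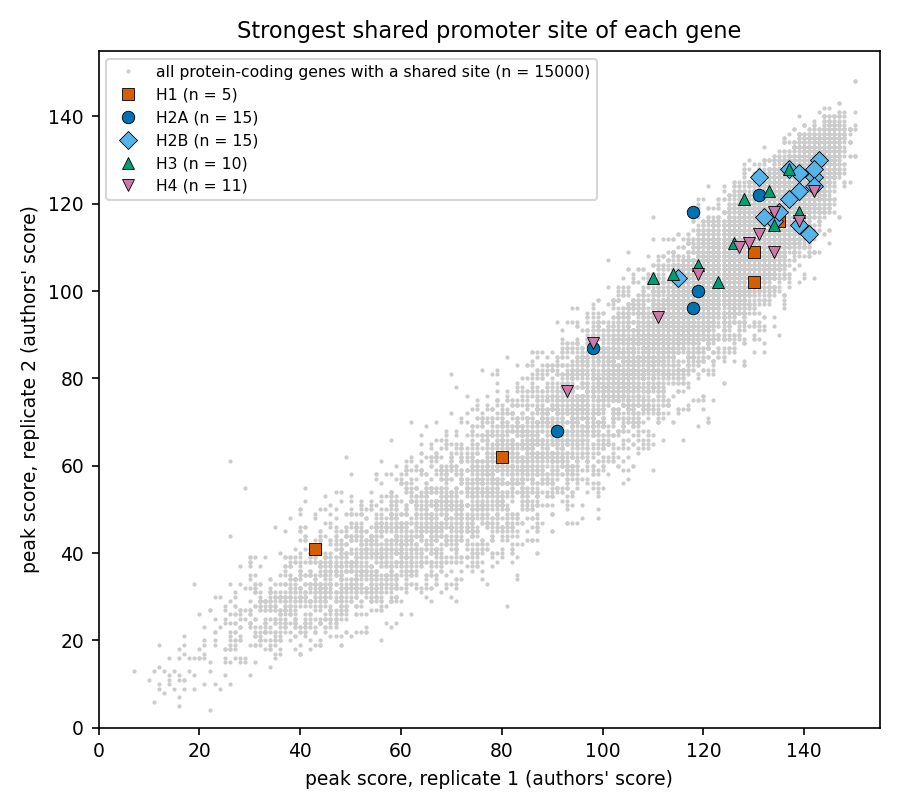
Authors' peak score of the highest-ranking shared promoter site of each gene, replicate 1 on the x axis and replicate 2 on the y axis. Grey points are all 15000 protein-coding genes with a shared site and coloured symbols are histone genes by type; most lie in the upper right, and Hist1h1t (43, 41) and Hist1h1b (80, 62) lie apart.

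By type, 15 of 18 H2A, 15 of 18 H2B, 10 of 12 H3, 11 of 13 H4 and 5 of 6 H1 genes had a shared peak. These shares run from 83.3% to 84.6%. Median scores were 139 and 123 for H2B, 132 and 118 for H2A, 127 and 113 for H3, 129 and 110 for H4, and 130 and 102 for H1. H2B scores ranged from 115 to 143 in replicate 1, and the ranges of all 5 types overlapped, so the order of the medians is a description. By cluster, 45 of 54 Hist1, 8 of 10 Hist2, 2 of 2 Hist3 genes and the Hist4 gene had a shared peak.

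H2A and H2B dimerise before they enter the nucleosome, and their genes often lie head to head. Of the members, 26 formed 13 head-to-head pairs with 5′ ends at most 1000 bp apart, 12 of them an H2A with an H2B gene and 1 an H2B with an H3 gene. The 5′ ends were 176 to 660 bp apart, with a median of 268 bp. In 10 of 13 pairs 1 shared site lay within 500 bp of a TSS of both genes. Its centre lay between the 5′ ends in 10 of 10. In the H2A and H2B pairs these ends are at most 306 bp apart, so a peak at either start counts for both genes. No share over all head-to-head gene pairs is given here. The 20 paired members with a peak therefore rest on 10 sites, with medians of 137 and 124, and the 36 unpaired members with a peak had medians of 128 and 110. Apart from Hist1h3f the paired members are H2A and H2B genes, and all H1 and H4 genes are unpaired. The sets therefore also differ in type.

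The highest-ranking site of all members lay between Hist1h2ae and Hist1h2bg, whose 5′ ends are 176 bp apart. It covered chr13:23571196-23571345 and scored 143 and 130. The printed Hist1h2bg promoter begins at the first base of this site and contains all of it. Next came the site between Hist1h2bf and Hist1h2ad, at 142 and 128. The pair Hist1h2ac and Hist1h2bc shared a site of 139 and 127. Of the pairs with a site, that of Hist1h2ak and Hist1h2bn ranked lowest, at 132 and 117, so the pairs with a site spanned a narrow range. The pair of Hist1h2bl and Hist1h2ai scored 134 and 116.

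Some unpaired H2A and H2B genes were as high. Hist1h2bm scored 142 and 126. At the low end of H2A, Hist2h2aa2 scored 98 and 87 and Hist2h2aa1 scored 91 and 68. Their sites were centred 314 and 307 bp before the TSS. In the window of these 2 genes, 72.7% and 66.7% of all 32-base words occur more than once in the genome. Among members with a site, the 12 with over 50% repeated words had medians of 139 and 126. The 44 with at most 50% had 131 and 115. All of the 12 are H2A or H2B genes, so the sets also differ in type. The 8 members with over 90% repeated words had no peak and are not in these medians. The lowest H2B gene was Hist3h2ba, at 115 and 103.

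H3 and H4 form the tetramer at the core of the nucleosome. Among H3 genes Hist1h3a led on its own promoter, with 139 and 118, followed by Hist1h3d with 133 and 123. Hist1h3f ranked above both, at 137 and 128, through a site centred 552 bp before its 5′ end. That site was nearest to Hist1h2bh, the H2B gene on the other strand, 108 bp from its TSS. A second shared site of Hist1h3f, 142 bp before its 5′ end, scored 67 and 58, and one 318 bp after it scored 128 and 118. The lowest H3 genes were Hist1h3b (114 and 104) and Hist1h3h (110 and 103).

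Among H4 genes Hist1h4c led with 142 and 123, then Hist1h4a with 139 and 116 and Hist2h4 with 134 and 118. The lowest were Hist1h4k, at 93 and 77, and Hist1h4j, at 98 and 88. The leading site of Hist1h4j was centred 536 bp after its TSS, and the peaks next to its TSS scored 97 and 67. Hist4h4, the single gene of its cluster, had a leading site 545 bp after its TSS, at 119 and 104. Peaks around the Hist4h4 TSS itself scored 117 and 94.

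In the smaller clusters the remaining members lay in the same range. In Hist2, the divergent pair Hist2h2ac and Hist2h2be shared a site of 137 and 121, and Hist2h2bb scored 142 and 124. Hist2h2ab had 118 in each replicate, and was the only one of the 46 sites at which replicate 1 did not score higher. Hist2h3b scored 123 and 102. In Hist3, Hist3h2a scored 131 and 122 through a site that was also the leading site of its neighbour Trim17.

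**Figure D2:**
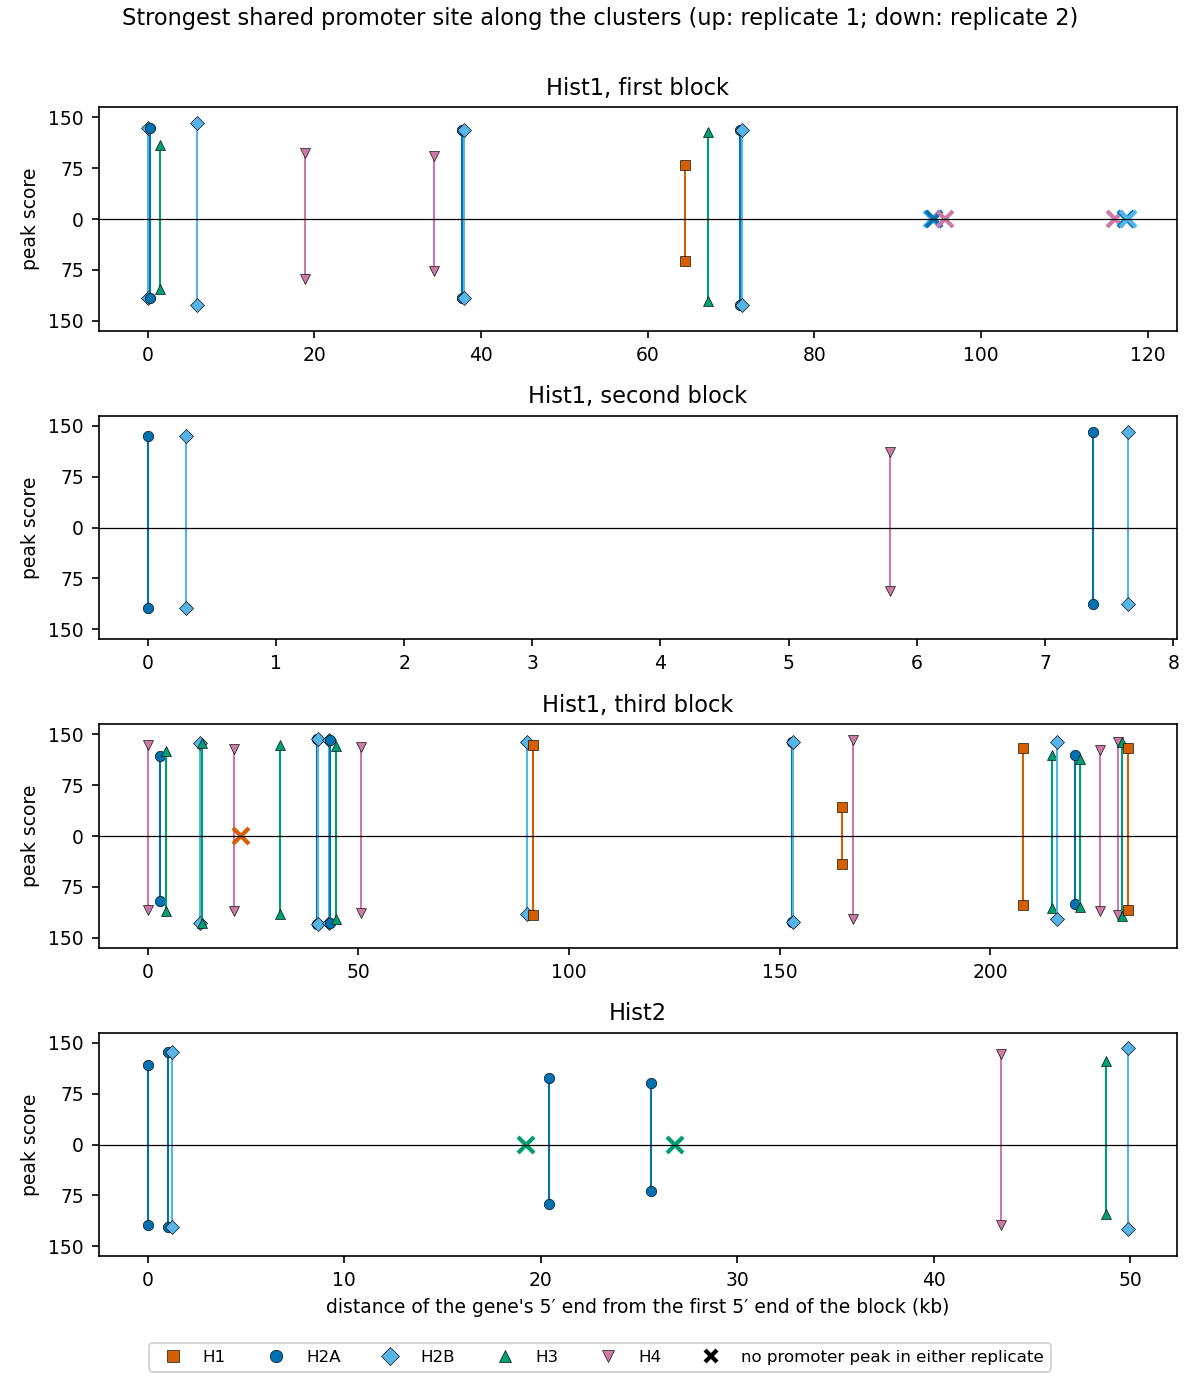
Score of the highest-ranking shared site of each member (y axis; replicate 1 upwards, replicate 2 downwards) against the distance of its 5′ end from the first 5′ end of the block (x axis, kb), for 3 blocks of Hist1 and for Hist2. Crosses mark members without a promoter peak in either replicate; 6 of them lie together at the end of the first block, and the testis pair, Hist3 and Hist4 are not drawn.

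H1 binds the linker DNA between nucleosomes and sets how tightly they pack. Hist1h1e scored 135 and 116, Hist1h1a 130 and 109, and Hist1h1c 130 and 102. Hist1h1b was lower at 80 and 62, and Hist1h1t, a linker histone known from the male germ line, was the lowest member with a site, at 43 and 41. The Hist1h1t hotspot had a −log10 q of 3.23 and 1.6, against 100 for every other member with a hotspot. A peak of 139 and 114 lay 1155 bp from the Hist1h1b TSS, outside the promoter window.

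Hist1h1d had no peak at its GENCODE 5′ end, where only 4 CpG lie within 500 bp. RefSeq places the start of Hist1h1d 1770 bp further downstream, where 51 CpG lie within 500 bp. A site there, chr13:23554956-23555125, scored 117 and 91 and was centred 8 bp after the RefSeq start. With RefSeq starts for all genes, an alternative chosen after seeing the data, 57 of 67 members (85.1%) and 6 of 6 H1 genes had a shared peak, against 70.0% of 20823 genes. RefSeq also gives Hist1h2be a start where a site of 139 and 125 lies, while its GENCODE site, at 139 and 115, lies within the gene model of Hist1h1e.

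The members without a peak fell into 2 kinds by their sequence. In 8 of the 11, more than 90% of the 32-base words within 500 bp of the 5′ end occur more than once in the genome. These were Hist1h2bq, Hist1h2ao, Hist1h2ap and Hist1h2br at 100%, Hist1h4n at 97.1%, Hist1h4m at 96.2%, and Hist2h3c1 and Hist2h3c2 at 96.7% each. They form near-copies in pairs: Hist1h2bq shares 99.8% of its words with Hist1h2br, Hist1h2ao 96.9% with Hist1h2ap, Hist1h4m 96.2% with Hist1h4n, and Hist2h3c1 95.2% with Hist2h3c2. None of these 8 genes had a peak, against 56 of the 59 other members (94.9%). The 90% line was not a preset one. It lies in a gap between Hist2h2aa2 (72.7%, with a peak) and Hist1h4m (96.2%, without one). These counts therefore follow from where the line was drawn. At the 50% line used elsewhere, 12 of the 20 members above it had one.

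A short read from such a stretch may match more than 1 position, and whether the authors' peaks used only uniquely placed reads was not stated. The part of repeated sequence in the missing peaks was not tested. Among the 47 members with at most 50% repeated words, 44 had a shared peak (93.6%). Of these 47, the 43 in CpG groups 6 to 10 had a shared peak in 41 (95.3%), beside 95.2% of all genes and 83.5% of other genes with 1 TSS there, neither filtered on repeated words. Each of the 10 H3 and 11 H4 genes with at most 50% repeated words had one.

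**Figure D3:**
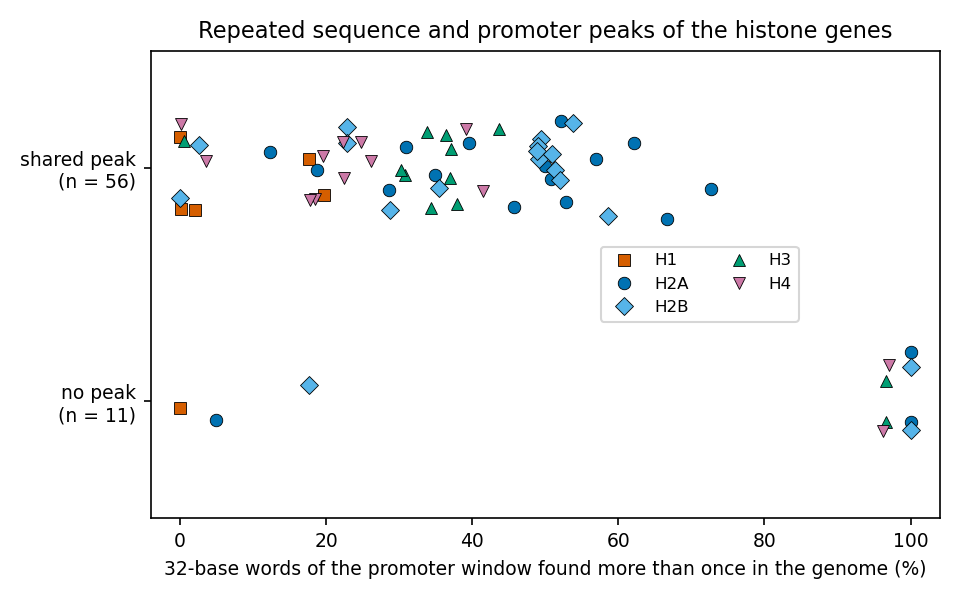
Share of 32-base words within 500 bp of the 5′ end that occur more than once in the genome (x axis, %) for the 56 members with a shared promoter peak (top) and the 11 without (bottom), by type; height within a row is random. The points without a peak lie either above 96% or below 18%.

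The other 3 members without a peak were Hist1h1d, described above, and the pair Hist1h2ba and Hist1h2aa, with 17.6% and 4.9% repeated words. The proteins of this pair are the H2B and H2A forms known from testis. Their 5′ ends lie 306 bp apart, and no peak of either replicate lay in the 1.08 kb that the pair spans. The printed Hist1h2ba promoter has 3 CCAAT boxes, an octamer and a TATA box, the kinds of letters that also stand in the Hist1h2bg promoter, and no peak was listed there. With Hist1h1t, 1 of 3 testis members had a shared peak. Among the 56 members that are neither of the testis list nor over 90% repeated, 55 had one, and the exception was Hist1h1d. The 8 near-copies and the testis pair are all the other members without a peak, so this count follows from what was left out.

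Along chromosome 13 the Hist1 genes form blocks separated by more than 100 kb. The first block of 122 kb had a shared peak at 12 of 18 members, and the 6 without one are near-copies that lie at its end. The second block of 8.51 kb had one at 5 of 5, and the third of 233 kb at 28 of 29. The fourth is the testis pair, with 0 of 2. Between the first and last members of the clusters lie 50 other protein-coding genes, most of them vomeronasal receptor genes (Vmn1r), and 10 of these 50 had a shared promoter peak. Their median CpG group was 2, in which 22.9% of all genes had one, so this count is near the background. The strongest were Trim17 (131 and 122), Zfp322a (132 and 115) and Zfp184 (128 and 105). Genes without a shared peak included Btn1a1, Slc17a1, Slc17a3, Slc17a4 and Trim38.

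Most sites of histone genes lay before the start of the gene. The centre was upstream of the nearest TSS in 50 of 56 members (89.3%), against 74.8% of the 15000 genes, and the median position relative to the TSS was -95.5 bp against -38 bp. Of the members 63 have only 1 annotated TSS, and a gene with more has more starts for a site to be near. The comparison with all genes is therefore not like for like. The 20 paired members with a peak share 10 sites centred between the 5′ ends, which count as upstream of both genes. With RefSeq starts the median of the members was -83 bp. H2A, H2B and H3 sites were upstream in all 40 members with a site, and H4 sites in 9 of 11. H1 sites were downstream in 4 of 5, with a median of 12 bp after the TSS. The median share of repeated words in the 500 bp after the 5′ end was 69.8% for H2A, 67.2% for H2B and 75.7% for H3. It was 46.4% for H4 and 2.25% for H1. Before the 5′ end it was 30.2% for H2A, 30.3% for H2B and 0.0% for H3, H4 and H1. The part of repeated sequence in the position of the sites was not tested.

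**Figure D4:**
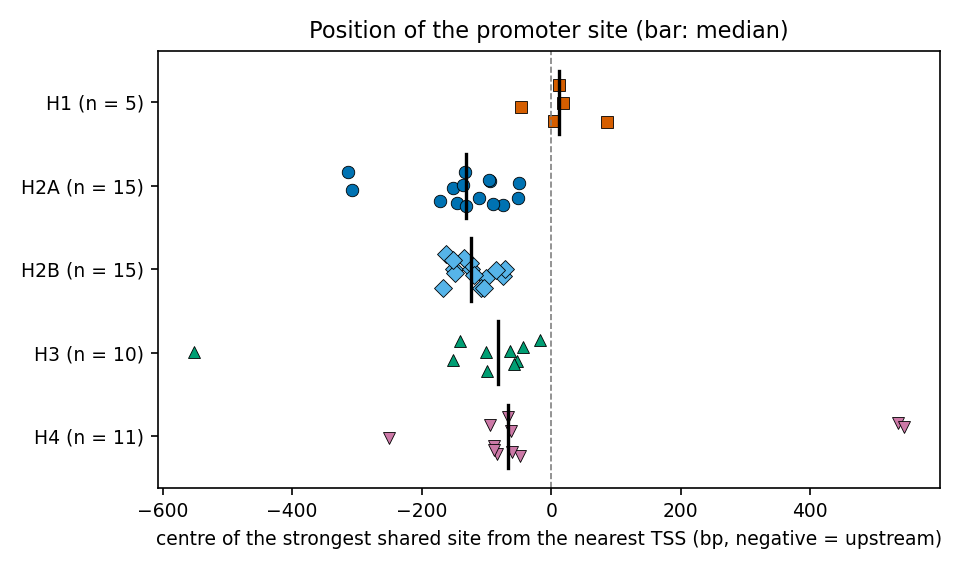
Centre of the highest-ranking shared site relative to the nearest TSS (x axis, bp, negative upstream) for each member with a site, by type; bars are medians and height within a row is random. H2A, H2B and H3 sites lie left of 0, 4 of 5 H1 sites lie right of it, and the points beyond 500 bp are Hist1h3f, Hist1h4j and Hist4h4.

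Hotspots at H1 promoters covered more of the gene than those at most H2A promoters. The median width of the hotspot at the promoter was 1320 and 598 bp for H1, 728 and 407 bp for H4, 666 and 484 bp for H3, 326 and 412 bp for H2B, and 320 and 297 bp for H2A. Among members with a promoter hotspot in both replicates, hotspots covered a median of 90% and 76.5% of the gene body in 5 H1 genes and 3.8% and 3.1% in 15 H2A genes. H2A genes ranged from 0.0% to 91.2% in each replicate: Hist2h2ab had 91.2% in both and Hist1h2ak 78.1% in both. In the 500 bp after the 5′ end the median share of repeated words was 2.25% for H1, 46.4% for H4, 75.7% for H3, 67.2% for H2B and 69.8% for H2A. In this stretch H1 had the lowest share and the widest hotspots, and H3 had the highest share and wider hotspots than H2A and H2B. Over the whole window the median shares were 1.1% for H1, 22.5% for H4 and 36.7% for H3. They were 49.0% for H2B and 50.3% for H2A. From H1 to H2A these shares rose as the widths of replicate 1 fell, while the widths of replicate 2 did not keep that order. The part of repeated sequence in hotspot width was not tested.

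The promoter letters differed by type. From 250 bases before to 50 bases after the 5′ end, on either strand, CCAAT was found in 56 of 67 members (83.6%), against 39.0% of all protein-coding promoters of that length. It was in 18 of 18 H2A, 18 of 18 H2B, 11 of 12 H3 and 5 of 6 H1 promoters, and in 4 of 13 H4 promoters. TATAAA was in 37 of 67 (55.2%), against 12.6%. The octamer ATTTGCAT was in 8 of 18 H2B and 7 of 18 H2A promoters and in 0 of the other 31 members, against 1.57% of all promoters. Paired H2A and H2B genes share much of this stretch, so their counts are not independent.

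The core of the HINFP element, GGTCCG, was in 12 of 13 H4 promoters, 2 of 12 H3, 1 of 18 H2B and 0 of 24 H1 and H2A promoters, against 9.6% of all. The H4 gene without it was Hist1h4a, which still scored 139 and 116. The H1 box AAACACA was in 4 of 6 H1 promoters, and in 5 of 6 with RefSeq starts, against 6.4% of all promoters. The E2F letters TTTCGCGC or TTTGGCGC were in 5 H2A and 4 H2B promoters and in no other member, against 1.02% of all. No motif searched is contained in another. A match is a description of letters and not a bound site.

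Motifs were found with and without a peak. Of the 56 members with CCAAT 48 had a shared peak, and of the 11 without it 8 had one. The 8 near-copies without a peak held motifs as well: CCAAT was in 6 of them, and Hist1h4m and Hist1h4n held the HINFP core. Within H2B, members with a site had medians of 139 and 124 with the octamer and 136 and 116 without it. Within H2A they were 136 and 122 with it and 131 and 116 without it. H4 members with a site scored 128 and 110 with the HINFP core, and Hist1h4a, without it, 139 and 116. Over all members with a site, those with TATAAA had medians of 132 and 118 and those without it 134 and 113. Of the 15 members with the octamer, 10 are in head-to-head pairs. The H2A and H2B medians with the octamer therefore rest in large part on the same sites and are not separate comparisons.

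**Figure D5:**
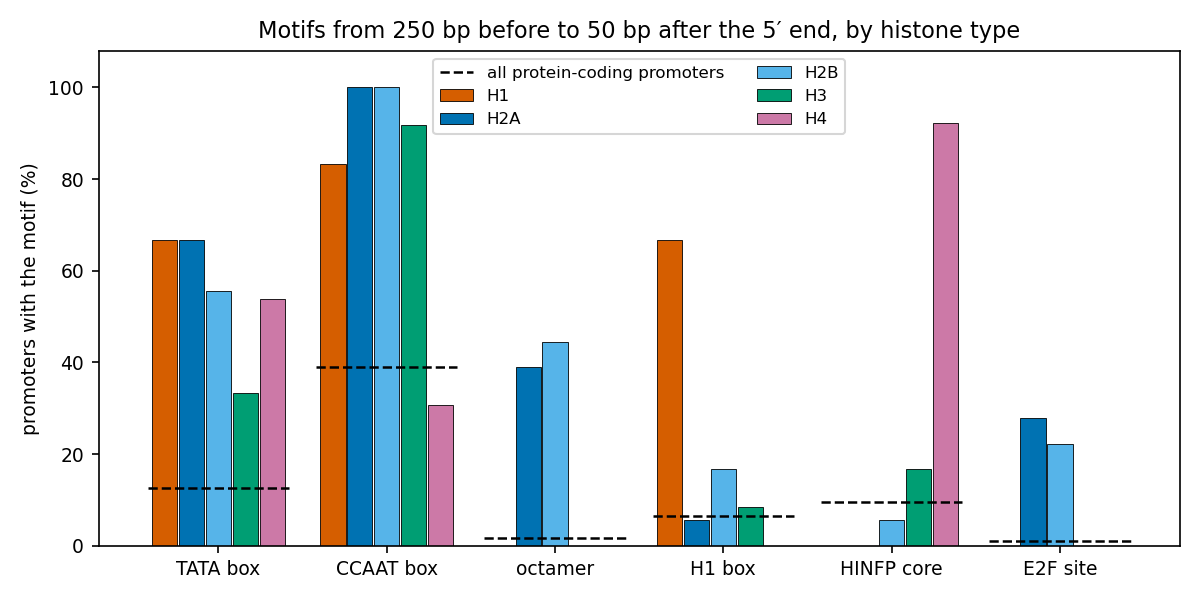
Share of promoters that hold each motif (y axis, %) for the 5 histone types, with the share over all protein-coding promoters as a dashed line. The octamer and the E2F site appear only in H2A and H2B, the HINFP core is in 12 of 13 H4 promoters, and CCAAT is in all H2A and H2B promoters.

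Shared peaks inside the blocks were not limited to promoter windows. A further 43 lay between the members, of which 24 were more than 1000 bp from any GENCODE TSS and 3 within 500 bp of the GENCODE TSS of another gene. The 24 include the sites at the RefSeq starts of Hist1h1d and Hist1h2be. Promoter sites are the highest-ranking of each gene and the 43 are not so picked, so their scores are not like for like. The 43 had median scores of 92 and 61, below those of the promoter sites. The strongest were the site at the RefSeq start of Hist1h2be, a site of 139 and 122 lying 700 bp from the Hist1h4h TSS, and one of 138 and 124 lying 1002 bp from the Hist1h1c TSS. These were chosen after their values were seen. Near the peak-less Hist2h3c2, a site of 54 and 38 lay 957 bp from the TSS.

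Promoters of the genes that transcribe, process and place histones were open too. Of 21 genes of histone gene transcription and histone mRNA processing, 21 had a shared promoter peak, with medians of 133 and 123. The strongest were Npat (146 and 137), Hinfp (144 and 135) and Zfp473, a zinc finger protein of the histone mRNA 3′ end processing complex (145 and 130). All 16 of 16 histone chaperone and deposition genes had one, with medians of 136 and 120, led by Hjurp, the chaperone of the centromeric histone CENP-A (150 and 148), Asf1b (146 and 139) and Rbbp4 (143 and 134). These genes lay mostly in high CpG groups, with median groups of 8 and 8.5. In groups 8 and 9, 96.4% and 96.7% of all genes had a shared peak, so these counts are near the background.

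Of 15 listed replacement and other histone genes outside the clusters, 13 were matched and 11 of these 13 had a shared peak (84.6%). Their median CpG group was 8, in which 96.4% of all genes had one. The strongest were H3f3b, which encodes the replacement histone H3.3 (144 and 139), H2afv (145 and 131) and H2afx (141 and 129). H1foo, the oocyte linker histone, and H2afb1 had none. The median of the 11, 133 and 123, lay next to that of the clustered genes, 132 and 116.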

How the data were processed

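DNase-seq of 2 newborn lung libraries was used as deposited. The authors called peaks and hotspots separately for each library on mm10, per the deposited notes. Which aligner and peak caller were used is not given in the sources used here. Each peak carries a score by the authors, a whole number on a scale that is not stated, and the deposited hotspots carry a −log10 q-value of at least 1.30 that is capped at 100. Scores were ranked within each list. Only chromosomes 1 to 19, X and Y entered, and 26 and 23 duplicate peaks were dropped. None of the intervals passed a chromosome end of GRCm38.

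Peaks were joined to GENCODE M21 TSSs with Python 3.11.15, numpy 2.4.6 and pandas 2.3.3. The highest-ranking site of a gene was the overlapping peak pair with the highest mean percentile among promoter peaks of the own list. Words of 32 bases were counted over the genome with numba 0.67.0. The joining was tested on simulated data, where 200 of 200 planted calls came back. RefSeq starts were matched for 67 of 67 members through Entrez identifiers.

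Members and lists were chosen with earlier results of these data known. Named were, per type, the 3 highest and 2 lowest members with a site, all members without one, all of Hist2, Hist3 and Hist4, the testis members, the strongest and weakest pairs, and the 3 strongest and the unshared genes of each other list (at most 5 neighbours, by alphabet). Other named members were chosen after their values were seen, as were the 6 printed promoters from those of the highest and lowest member per type. Alternatives tried were the overlap, window, TSS, threshold, interval kind, replicate and repeat choices.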

Additional observations from a re-analysis of the deposited data

How the results depend on the processing

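Under a larger overlap, windows of 250 and 1000 bp, only the 5′ end, peaks above the median score, hotspots, either replicate alone and the peak centre, 55 to 57 of the 67 members had a promoter peak. Of 184 recomputed values, 183 kept their direction and stayed within the spread between replicates or within 1.5 times the count. The exception was the number of H2A genes with a shared peak, 15 of 18, which fell to 8 of 9 when members with over 50% repeated words were left out; fewer genes were then counted. In all, 44 of 47 members remained with a peak under that choice. No paired analysis was possible because the result comes from no test. Depth was not given, so no limit of detection could be set for the 11 members without a peak.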
